A study of Homo sapiens with 3 samples.

Results

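Integrins, laminins and collagens are the families through which an epithelial cell holds on to the matrix around it. Laminins are cross-shaped trimers of an alpha, a beta and a gamma chain that form the base of the basement membrane, collagens are triple-helical proteins that build its type IV network as well as fibrils and anchoring structures, and integrins are alpha and beta pairs in the plasma membrane that bind both and connect them to the cytoskeleton. Laminin-332, which contains the LAMA3 and LAMB3 chains, is the laminin of epithelial attachment and binds the integrins alpha3beta1 and alpha6beta4. Expression of these families was examined here in YB5 cells, a clonal derivative of the colon cancer line SW48 that carries 1 silenced copy of a GFP reporter under a methylated CMV promoter. Decitabine is a cytosine analog that traps DNA methyltransferases, and carboplatin is a platinum compound that crosslinks DNA.

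The members are the probes of genes named ITGA, ITGB, LAMA, LAMB, LAMC or COL with their number. There were 136 member probes of 41000 on the array, 45 for integrins, 21 for laminins and 70 for collagens, and they stand for 80 genes. RNA of treated cells was hybridised against RNA of control cells given DMSO on 3 dual-colour Agilent arrays, 1 per treatment, all on 1 slide. The treated cells received decitabine at 25 nM, carboplatin at 20 μM by the sample labels, or both at these doses, in 4 doses on days 1 to 4, and all cells were harvested on day 6. Control RNA carried Cy5 and treated RNA Cy3 on every array, so a dye preference of a probe is part of each change, and the labels do not tell if 1 control extract served all arrays. Each treatment has 1 array and no replicate, so differences are described without a test, and precision is limited by having 3 arrays in all. They are called the decitabine-labelled, the carboplatin-labelled and the combination array.

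All values below are on the log2 scale. A level is the normalised brightness of 1 channel, and a change is the level in treated cells minus that in control cells on the same array. A probe was called higher or lower at a change of at least 1.5-fold (0.585 on the log2 scale), and "well above background" is the scanner software's mark for a signal that exceeds the local background. Repeated spots of 1 probe, 264 probes in all, had a pooled SD of the change of 0.0776, 0.0747 and 0.0758 on the decitabine-labelled, carboplatin-labelled and combination arrays, outside the first 9 columns. In those columns, which hold 10.1 % of the spots, the median change on the decitabine-labelled array was 0.75 against −0.02 elsewhere, so spots there were kept apart. Of the members, 126 probes and 76 genes had a spot outside these columns, and each gene is given by its brightest such probe. The arrays are named by their labels, since the genes that the study's supplement lists as lowered by carboplatin followed another array: of 53 such genes measured, 41 were lower on the decitabine-labelled array, 4 on the carboplatin-labelled array and 37 on the combination array. The labels of the single-drug arrays may thus be exchanged, which was not tested, and a drug named with a single-drug value is that array's label. As a check of the colon label, the control was well above background on all 3 arrays for 8 of 10 measured colon epithelial markers, KRT8, KRT18 and CDH1 among them. The exceptions were the intestinal markers KRT20 and GPA33, the latter dark in every channel. In the same way 1 of 5 endothelial markers was detected (VWF, with CDH5, KDR and PECAM1 dark in every channel), 2 of 7 leukocyte markers (CD14 and CD3E, with PTPRC dark) and 4 of 10 fibroblast markers (ACTA2, FBN1, THY1 and VIM, with FAP, PDGFRB and POSTN dark). Of these fibroblast markers, the smooth muscle actin ACTA2 changed by 2.12, 0.91 and 2.11 and FBN1 by −0.52, −0.35 and −0.66. VIM changed by −0.36, −0.34 and −0.22, and THY1 by −0.02, 0.06 and 0.02. YB5 is a clonal line, and the source of these marker signals was not tested.

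The repertoire of attachment genes in the control cells was that of 45 of the 76 genes, whose control channel was well above background on all 3 arrays. Nearly all laminins were detected, 10 of 11, with LAMB4 dark in every channel. Among integrins 16 of 25 were detected, including the laminin receptor chains ITGA3, ITGA6, ITGA7 and ITGB4, the collagen receptor chains ITGA1 and ITGA2, and the shared partner ITGB1. Collagens were detected for 19 of 40 genes. Of the 11 genes of fibril-forming collagens, which connective tissue cells make, 4 were detected, COL1A1, COL5A2, COL11A2 and COL27A1, and 5 were dark in every channel, COL1A2, COL2A1, COL3A1, COL5A3 and COL11A1. COL1A1, a chain of type I collagen, had control levels of 7.20, 7.30 and 7.26 over 10 spots and changed by −0.40, 0.29 and −0.29. Also dark were ITGB3 of platelets and endothelium, ITGB6, and the leukocyte chains ITGAL, ITGAX and ITGAD. In all, 20 of the 76 genes were well above background in no channel, so for these a difference was not detectable. The control levels of the 45 detected genes differed between the arrays by a median of 0.16, and for 44 of them by less than 0.585. The exception was LAMC3, with a range of 0.79.

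On the decitabine-labelled array, 8 of the 76 member genes were higher and 6 lower, against 3.95 % and 4.47 % of all 27629 genes. On the carboplatin-labelled array 4 were higher and 1 lower, where 2.12 % and 1.28 % of all genes passed. With both drugs 17 were higher and 4 lower, beside 5.75 % and 4.94 % of all genes. The median member did not shift, at −0.04, −0.02 and 0.00 in the same order, so the counts come from few genes, 24 in all, while 52 genes passed the border on no array. Among the 45 genes detected in the control on every array, 7, 4 and 14 were higher and 6, 1 and 4 lower, where 5.83, 2.92 and 8.15 % of all genes of that kind were higher and 6.82, 1.96 and 7.55 % lower. By probe, 12, 6 and 24 of the 126 were higher and 6, 1 and 4 lower, beside 3.84, 2.03 and 5.58 % of all gene probes higher and 3.99, 1.09 and 4.52 % lower. Centring each array on its median in place of the intensity-dependent loess fit gave 6 higher and 15 lower, 11 and 15, and 12 and 12 member genes on the 3 arrays. By probe it gave 10 higher and 16 lower, 23 and 17, and 17 and 13 members. Of all gene probes, 2.95, 10.4 and 3.7 % were then higher and 20.1, 13.1 and 16 % lower.

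**Figure D1:**
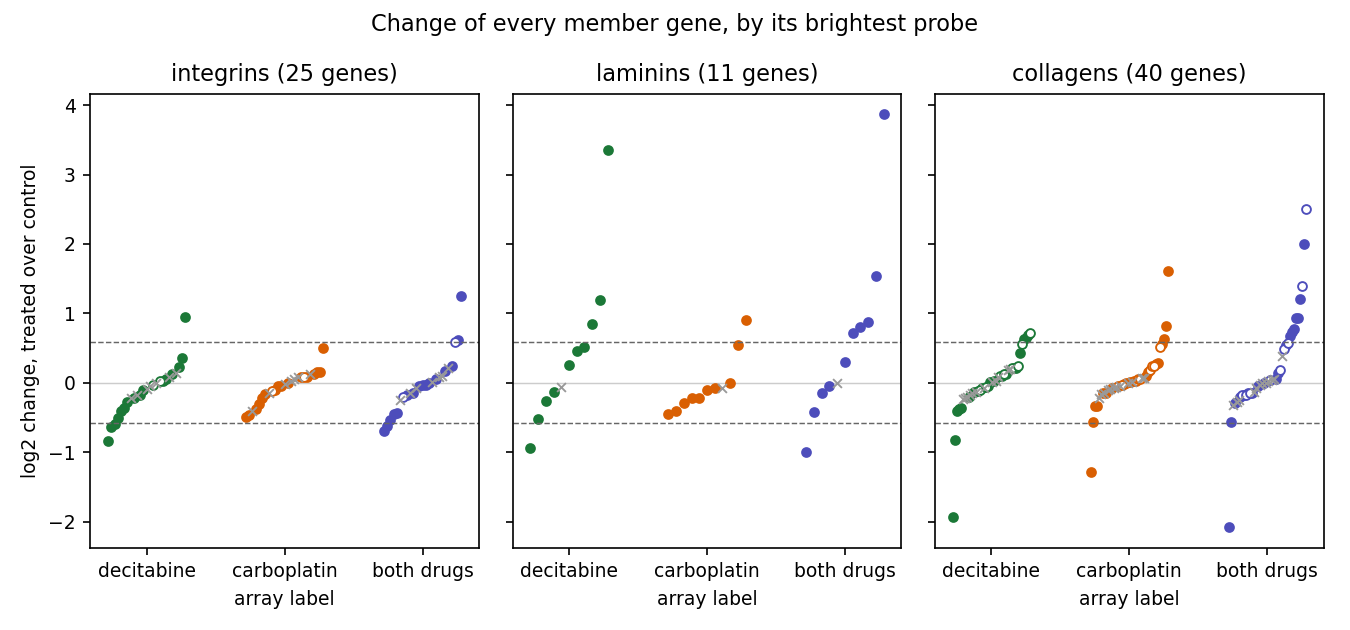
Change of each of the 76 member genes (y axis, log2 of treated over control) on the 3 arrays (x axis), in rank order within each array, for integrins, laminins and collagens. Filled circles have the control well above background on all 3 arrays, open circles in some channel only, crosses in none, and dashed lines mark 1.5-fold. Most genes lie between the lines, and the highest points are LAMC3 at 3.36 and 3.87 and COL5A1 at 2.51.

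The largest change of any member gene on the decitabine-labelled and combination arrays was that of LAMC3. It encodes the gamma3 chain, which occurs outside the classical basement membranes, and its probe lies at chr9:133967284-133967341 (hg19). On the decitabine-labelled array it read 7.73 in control and 11.09 in treated cells, with carboplatin 7.27 and 8.18, and with both drugs 8.07 and 11.93. Treated exceeded control on all 3 arrays, by 10.2-fold, 1.88-fold and 14.6-fold, which made LAMC3 the sole member called higher on each of them. Its control levels spread over 0.79, which is within reach of the change of 0.91 on the carboplatin-labelled array but far under the other changes. Under 9 alternative ways of processing, the change lay between 2.93 and 3.88 on the decitabine-labelled array and between 3.49 and 4.22 with both drugs. Among these ways, the filter on the control and the averaging of probes leave a gene with only this probe unchanged.

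The laminin-332 chains LAMA3 and LAMB3 were higher on the decitabine-labelled and combination arrays. LAMA3, the alpha3 chain that carries the integrin binding site, read 10.93 in control and 12.12 in treated cells on the decitabine-labelled array, 10.77 and 10.47 on the carboplatin-labelled one, and 10.77 and 12.31 with both drugs. LAMB3, the beta3 chain, read 15.85 in treated cells on the decitabine-labelled array, 0.85 above its control, then 15.24 in control and 15.16 in treated cells with carboplatin, and 15.06 and 15.92 with both drugs. The changes were thus 1.19, −0.29 and 1.54 for LAMA3 and 0.85, −0.08 and 0.87 for LAMB3. Further probes gave like values: 2 other LAMA3 probes changed by 0.88 and 0.84 on the decitabine-labelled array and by 1.13 and 1.04 with both drugs. LAMB3 is bright, and under median centring its changes on these 2 arrays fell to 0.18 and 0.22, while those of LAMA3 stayed at 0.65 and 1.10.

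**Figure D2:**
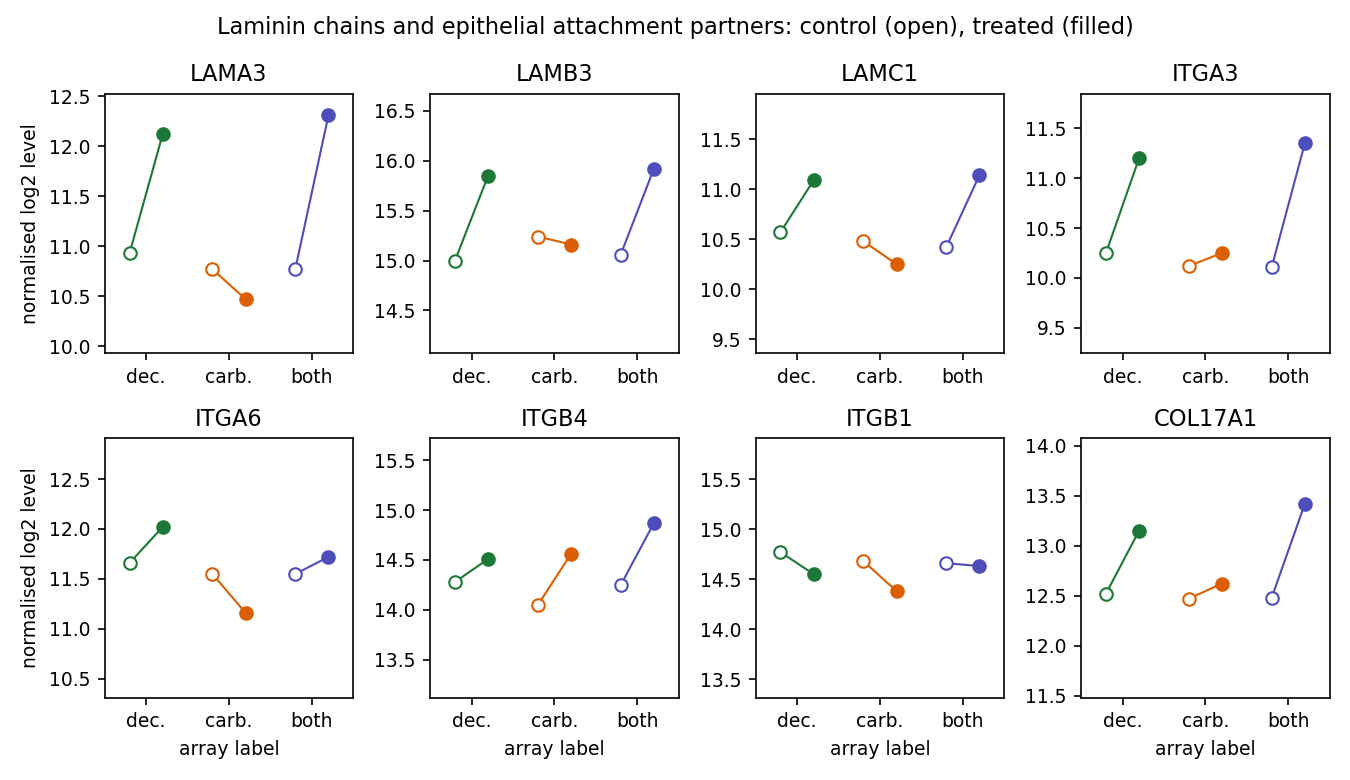
Normalised log2 levels (y axis) in control (open) and treated (filled) cells for the laminin chains LAMA3, LAMB3 and LAMC1, the integrin receptor chains ITGA3, ITGA6, ITGB4 and ITGB1, and COL17A1, on the decitabine-labelled, carboplatin-labelled and combination arrays (x axis, each panel spanning the same number of log2 units). LAMA3, LAMB3, ITGA3 and COL17A1 climb on the first and the last array by at least 0.63, and so does LAMC1 with both drugs (0.72).

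To show the genomic setting of these chains, the promoter windows of RefSeq (GRCh38.p14, 250 bases before to 50 after a listed start) were read for the members. Windows were matched for 56 of the 80 genes, 75 windows in all. The motif TGANTCA, its own reverse complement with N for any base, was searched because AP-1 sites are known in promoters of laminin-332 genes. It takes in the AP-1 site, which has C or G at N, and also sequences with A or T there. It occurred in 4 of the 75 member windows (5.33 %) and in 7.71 % of all 35116 windows, and those 4 windows belong to LAMA3, LAMB3, ITGA5 and COL10A1. The LAMA3 matches at chr18:23872884-23872912 and chr18:23872940-23872968 (+ strand), the LAMB3 match at chr1:209651424-209651452 (− strand) and the ITGA5 match at chr12:54419255-54419283 (− strand) are shown 5′ to 3′ with the motif in capitals.
LAMA3, first match: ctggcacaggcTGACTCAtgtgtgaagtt
LAMA3, second match: ccttcctcaccTGAGTCAggcaggcccgg
LAMB3: gtcagccactcTGACTCAttcactttggg
ITGA5: cctccccgcgtTGAGTCAttcgcctctgg
The matches lie 125 and 69 bases before the LAMA3 start and 67 bases before a LAMB3 start. LAMB3 has further listed starts upstream, and their windows hold no match. ITGA5, the fibronectin receptor chain, changed by −0.27, 0.16 and −0.03, so the motif stood in windows of genes that were called and of a gene that was not. The matches of COL10A1, a collagen of growth cartilage, have A or T at N and so lack the AP-1 letters. COL10A1 changed by −0.38, −0.33 and −0.15.

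The 250 bases before the LAMA3 start, chr18:23872770-23873019 on the + strand, are printed with each CpG in capitals, since cytosines of CpG are the ones that decitabine frees of methylation. They hold 9 CpG, and the whole window holds 13, beside a median of 14 over all windows and 16 over member windows.
LAMA3: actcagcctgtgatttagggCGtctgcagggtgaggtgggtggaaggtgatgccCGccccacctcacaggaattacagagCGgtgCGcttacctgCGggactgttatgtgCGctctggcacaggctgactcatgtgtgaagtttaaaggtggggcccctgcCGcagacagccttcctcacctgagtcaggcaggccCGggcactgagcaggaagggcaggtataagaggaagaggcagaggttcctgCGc

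Further laminin chains were called on 1 or 2 arrays or on none. LAMC1, the gamma1 chain of most laminins, read 10.57 and 11.09, 10.48 and 10.25, and 10.42 and 11.14 on the decitabine-labelled, carboplatin-labelled and combination arrays, changes of 0.52, −0.22 and 0.72. LAMA5, the alpha5 chain of adult epithelial basement membrane, read 10.56 and 11.02, 10.50 and 11.05, and 10.50 and 11.31, and only the last, a change of 0.81, passed. Under median centring the combination array gave 0.38 for LAMA5 and 0.29 for LAMC1, which ended both calls. LAMA4, a chain of vessel and muscle laminins, was lower, at 10.81 and 9.88, 10.60 and 10.15, and 10.71 and 9.72, which is −0.94, −0.45 and −0.99. That reading depends on the probe, since a LAMA4 probe in an upstream part of the gene, at chr6:112535215-112537571 (hg19), changed by −0.14, 0.25 and −0.09. LAMB1 and LAMB2, the widely used beta chains, stayed within the border at 0.25, −0.11 and 0.30 and at −0.52, −0.22 and −0.04.

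Of the integrins, ITGA3 had the largest change on the decitabine-labelled and combination arrays. ITGA3 is the alpha3 chain of the laminin-332 receptor alpha3beta1, and its probe at chr17:48167365-48167424 (hg19) read 10.25 in control and 11.20 in treated cells on the decitabine-labelled array, 10.12 and 10.25 with carboplatin, and 10.11 and 11.35 with both drugs. The changes of 0.95, 0.13 and 1.25, or 1.93-fold, 1.10-fold and 2.38-fold, passed on the decitabine-labelled and combination arrays, as those of LAMA3 and LAMB3 did, and under median centring they were 0.44 and 0.83 there, so that the first call was lost. Its partner ITGB1 passed 1.5-fold on no array, with levels of 14.77 and 14.55, 14.68 and 14.38, and 14.66 and 14.63. Of the other laminin-332 receptor, ITGA6 changed by 0.36, −0.38 and 0.17, under the border everywhere, and ITGB4 read 14.28 and 14.51, 14.05 and 14.56, and 14.25 and 14.87, so that its change grew from 0.23 to 0.50 and 0.62 and passed on the last array. ITGB4 is bright as well, and median centring left 0.04 of its 0.62.

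Of the integrins that were lower, ITGA1, a collagen receptor chain, read 8.30 in control and 7.46 in treated cells on the decitabine-labelled array, 8.09 in both channels on the carboplatin-labelled one, and 8.16 and 7.47 with both drugs, which is −0.84, 0.00 and −0.69. ITGA2, the other epithelial collagen receptor and its neighbour 145 kb away on chromosome 5, changed by 0.05, −0.49 and −0.14. ITGA7, a laminin receptor chain best known from muscle, fell by 0.64 on the decitabine-labelled array (13.26 to 12.62) and read 13.18 and 13.00 with both drugs, a change of −0.18. ITGB7, the beta7 chain of gut-homing lymphocytes, fell by 0.59 on the decitabine-labelled array (8.78 to 8.19), and its partner ITGAE by 0.62 with both drugs (10.41 to 9.78). Each of these 4 kept a negative sign under all 9 alternatives on the array where it was called. As each has 1 probe, the filter on the control and the averaging of probes could not move its value. ITGAV, the alpha chain of the vitronectin receptors, stopped short of the border on every array (−0.50, −0.46 and −0.54 by a probe with 8 spots outside the first columns and SDs of 0.020, 0.035 and 0.048). A second, dimmer ITGAV probe, with control levels of 6.57, 6.44 and 6.39, changed by −0.09, 0.15 and 0.03. ITGB2, the beta chain of leukocyte integrins, was higher with both drugs alone, at 6.08 and 6.67 over 10 spots, but its control was not well above background, so at least 1.3-fold is the bound, and its second probe changed by 0.01. In all, 1, 0 and 3 of the 25 integrin genes were higher and 3, 0 and 2 lower on the decitabine-labelled, carboplatin-labelled and combination arrays, which is 4, 0 and 12 % and 12, 0 and 8 %, beside 3.95, 2.12 and 5.75 % and 4.47, 1.28 and 4.94 % of all genes.

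**Figure D3:**
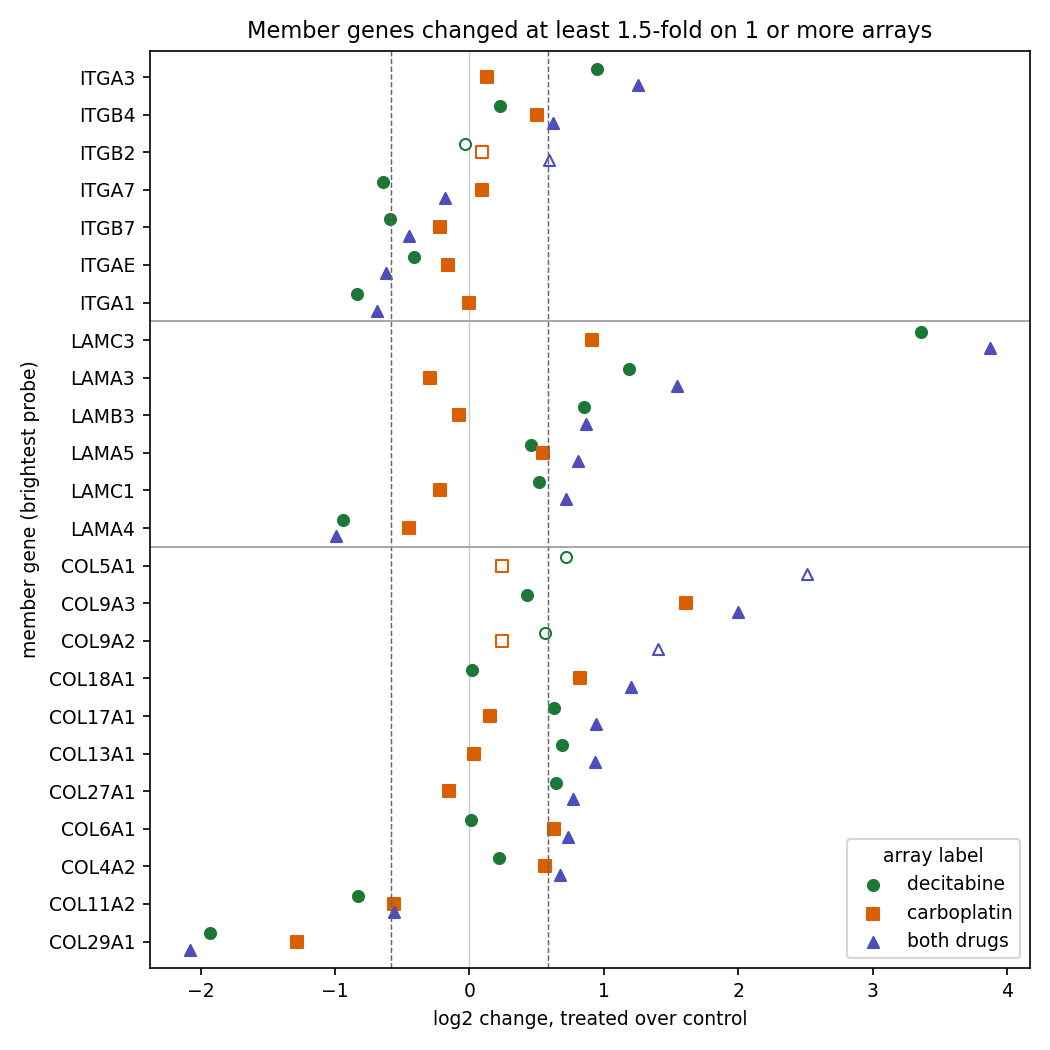
Log2 change of treated over control (x axis) of the 24 member genes that passed 1.5-fold on 1 or more arrays (y axis, integrins at the top, laminins in the middle, collagens at the bottom). Circles, squares and triangles are the decitabine-labelled, carboplatin-labelled and combination arrays, open symbols have a control not well above background on that array, and dashed lines mark 1.5-fold. LAMC3 lies to the right of the upper border on all 3 arrays, and COL29A1 to the left of the lower border on all 3.

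Collagens gave 4, 3 and 9 of 40 genes higher and 2, 1 and 1 lower, which is 10, 7.5 and 22.5 % and 5, 2.5 and 2.5 %, beside 3.95, 2.12 and 5.75 % and 4.47, 1.28 and 4.94 % of all genes. They fell into sets by the arrays on which they passed. COL9A3, COL18A1 and COL6A1 passed on the carboplatin-labelled and combination arrays. COL9A3 encodes the alpha3 chain of type IX collagen, which decorates cartilage fibrils, and read 6.89 and 7.32 on the decitabine-labelled array, 6.67 and 8.28 on the carboplatin-labelled one, and 6.93 and 8.93 with both drugs. The changes were 0.43, 1.61 and 2.00, the last a 3.99-fold difference. COL18A1, the basement membrane collagen whose end fragment is endostatin, was level on the decitabine-labelled array (11.14 and 11.16) and higher on the others (11.05 and 11.87, 11.13 and 12.33), with changes of 0.02, 0.82 and 1.20. COL6A1, a chain of the beaded filaments of type VI collagen, went the same way at 15.19 and 15.21, 14.91 and 15.54, and 15.16 and 15.89, or 0.01, 0.63 and 0.73. A second probe of each of the latter genes gave 0.11, 0.61 and 0.97 for COL18A1 and 0.26, 0.93 and 1.04 for COL6A1. Under median centring on the carboplatin-labelled and combination arrays the brightest COL6A1 probe went to 0.00 and 0.08, and COL18A1 to 0.34 and 0.75, so that both calls of COL6A1 and the first of COL18A1 were lost.

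These genes have member neighbours that were measured beside them. COL18A1 and COL6A1 lie 491 kb apart by their probes near the end of chromosome 21 (chr21:46933558-46933617 and chr21:47424836-47424895, hg19), where ITGB2 and COL6A2 lie as well. COL6A2, which encodes the partner chain of COL6A1 and lies 124 kb further on, had a control that was well above background on no array and changed by 0.13, 0.05 and 0.04. On chromosome 20, LAMA5 and COL9A3 lie 587 kb apart and COL20A1 490 kb beyond, with changes on the combination array of 0.81, 2.00 and 0.48. COL4A1 and COL4A2, head-to-head genes of the type IV network on chromosome 13, differed from each other: COL4A2 read 7.86 and 8.08, 7.72 and 8.28, and 7.80 and 8.46, changes of 0.22, 0.56 and 0.67 (the last 0.47 under median centring, no longer called), whereas COL4A1 changed by 0.13, 0.00 and 0.14. The remaining type IV genes stayed between −0.18 and 0.24.

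COL17A1, COL13A1 and COL27A1 passed on the decitabine-labelled and combination arrays. COL17A1 encodes the transmembrane collagen of hemidesmosomes, the structures in which laminin-332 and alpha6beta4 meet, and read 12.52 and 13.15, 12.47 and 12.62, and 12.48 and 13.42, changes of 0.63, 0.15 and 0.94. A second COL17A1 probe gave 0.84, −0.04 and 0.89. COL13A1, another transmembrane collagen, read 7.06 and 7.75, 7.04 and 7.07, and 6.98 and 7.91 as means of 8 spots, and the changes of 0.69, 0.03 and 0.93 had SDs of 0.088, 0.074 and 0.148 between those spots. COL27A1, a fibrillar collagen of cartilage, changed by 0.64, −0.15 and 0.77 from 12.10 to 12.74, 12.08 to 11.93 and 12.15 to 12.93. Its 2 dimmer probes did not pass on the decitabine-labelled array, at 0.35 and 0.16, and gave 0.64 and 0.12 with both drugs. Median centring took COL17A1 to 0.07 and 0.45 and COL27A1 to 0.09 and 0.30 on the decitabine-labelled and combination arrays, which ended these calls, and COL13A1 to 0.57 on the decitabine-labelled one, just under the border.

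COL5A1 and COL9A2, which the study names together with COL8A2 under integrin signalling, were not above background in control cells. COL5A1, which regulates the width of type I fibrils, read 6.07 and 6.79, 6.11 and 6.36, and 6.14 and 8.66 on the decitabine-labelled, carboplatin-labelled and combination arrays. Since the control was not well above background on any array, its difference is a bound. By this probe, treated cells were at least 1.65-fold higher on the decitabine-labelled array and at least 5.15-fold higher with both drugs. On the carboplatin-labelled array neither channel was well above background. A second COL5A1 probe gave a bound of at least 1.59-fold with both drugs. On the decitabine-labelled array it changed by 0.38, with neither channel well above background. Under the alternatives the COL5A1 change went down to 0.55 on the decitabine-labelled array and 1.78 with both drugs. COL9A2, a partner of COL9A3 in type IX collagen, read 6.27 and 6.82, 6.33 and 6.58, and 6.19 and 7.59, or at least 1.47-fold, 1.19-fold and 2.46-fold. COL8A2, a network collagen of the corneal basement membrane, has its spot in the first columns, where the decitabine-labelled array is displaced. It read 5.91 and 6.36, 6.21 and 7.44, and 6.16 and 7.17. Its bounds were at least 2.34-fold on the carboplatin-labelled array and 1.84-fold on the combination array. On the decitabine-labelled array its change of 0.46 was under the median of 0.75 in those columns, so no bound is given there. On the combination array all 3 genes thus had a treated channel above background where the control had none. The study lists them among genes raised by the combination on its arrays. Their rise there is thus how they were picked and is no separate result. The array with the largest bound was the combination array for COL5A1 and COL9A2 and the carboplatin-labelled one for COL8A2.

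The windows of COL5A1 and COL9A2 were among the member windows rich in CpG, with 36 and 29, and that of COL17A1 among the poorest, with 1. The 250 bases before each start are printed with CpG in capitals to show this contrast: COL5A1 at chr9:134641553-134641802 on the + strand, COL9A2 at chr1:40317287-40317536 on the − strand and COL17A1 at chr10:104085881-104086130 on the − strand, with 29, 22 and 1 CpG in the printed part.
COL5A1: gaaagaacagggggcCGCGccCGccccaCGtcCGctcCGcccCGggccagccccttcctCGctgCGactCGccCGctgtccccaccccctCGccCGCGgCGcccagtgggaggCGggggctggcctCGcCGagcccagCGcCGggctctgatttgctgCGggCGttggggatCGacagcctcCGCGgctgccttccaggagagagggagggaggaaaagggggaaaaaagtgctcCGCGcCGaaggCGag
COL9A2: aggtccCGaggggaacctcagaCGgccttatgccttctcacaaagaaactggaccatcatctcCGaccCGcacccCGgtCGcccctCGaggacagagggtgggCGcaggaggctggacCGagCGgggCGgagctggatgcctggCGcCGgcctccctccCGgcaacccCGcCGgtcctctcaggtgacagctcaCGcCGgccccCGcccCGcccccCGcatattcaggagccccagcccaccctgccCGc
COL17A1: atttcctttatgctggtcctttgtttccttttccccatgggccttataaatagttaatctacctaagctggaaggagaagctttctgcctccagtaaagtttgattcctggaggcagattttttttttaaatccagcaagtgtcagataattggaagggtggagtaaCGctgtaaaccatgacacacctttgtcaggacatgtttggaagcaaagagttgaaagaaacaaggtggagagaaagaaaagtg
For each gene the highest CpG count of its windows was taken. The median of this count was 29 over the 11 matched genes called higher on at least 1 array outside the first columns. Over the 45 other matched members it was 19, and over all genes 16. COL8A2, with 45 CpG, COL21A1, ITGA4 and LAMA2, spotted only in the first columns, count among the others, as do genes dark in every channel. LAMC3, COL9A3, ITGA3, COL6A1, ITGB2 and ITGB4 were higher too but had no matched window, so these medians leave them out. COL18A1 had the window with the most CpG, 46, and ITGB6, which was dark, the one with none. The methylation state of these windows was not analysed here.

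The lower collagens were COL29A1 and COL11A2. COL29A1, renamed COL6A5 in RefSeq, encodes a type VI chain, and read 10.08 and 8.15, 9.84 and 8.55, and 10.01 and 7.93. It was the sole member lower on all 3 arrays, by 3.80-fold, 2.43-fold and 4.22-fold, and stayed past the border under each of the 9 alternatives on every array. The filter on the control and the averaging of probes could not move it, since it has only this probe. The adjacent type VI gene COL6A6, 192 kb away on chromosome 3, was dark. COL11A2, a fibrillar chain of cartilage, read 10.05 and 9.22, 9.81 and 9.25, and 10.01 and 9.44, and its changes of −0.83, −0.56 and −0.56 passed on the decitabine-labelled array. Closest to 1.5-fold among the called values were ITGB2 at 0.59 with both drugs and ITGB7 at −0.59 on the decitabine-labelled array. Among those not called they were COL16A1 at 0.58 with both drugs, COL4A2 at 0.56 on the carboplatin-labelled array, COL9A2 at 0.56 on the decitabine-labelled one, and COL11A2 at −0.56 on both arrays where it was not called.

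Of the 76 genes, 34 had more than 1 probe. Among the called genes plotted as brightest against other probes, LAMA4 had detected probes that lay 0.80, 0.70 and 0.89 apart on the decitabine-labelled, carboplatin-labelled and combination arrays. Outside the called genes, those of ITGAV lay 0.41, 0.61 and 0.58 apart, and those of ITGB1 0.37, 0.61 and 0.49. A probe named ITGB1 in the files is placed on chromosome 8 there, away from ITGB1 on chromosome 10. Its changes of 0.16, 0.31 and 0.46, the highest of the ITGB1 probes, form the upper end of the ITGB1 gaps just given. The value of the gene is that of its brightest probe and leaves this probe out. The probe counts and the average over all probes of a gene include it.

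**Figure D4:**
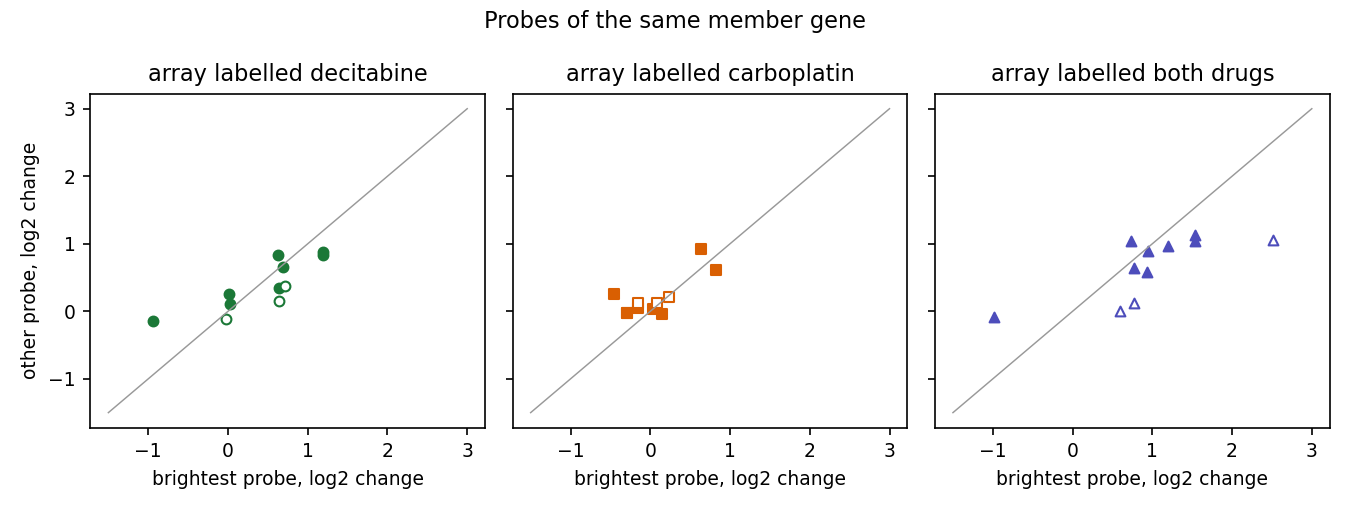
Log2 change of the other probes (y axis) against that of the brightest probe (x axis) for the changed member genes with more than 1 probe, on each array. Filled symbols have the control well above background on all 3 arrays, open symbols do not, and the line marks equal values. Most filled points follow the line, and LAMA4 lies off it at −0.94 against −0.14 on the decitabine-labelled array and at −0.99 against −0.09 with both drugs.

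Spots in the first 9 columns were inspected apart. An ITGB1 probe with 10 spots differed most by place. Its 3 spots in these columns averaged 1.41 on the decitabine-labelled array, and the 7 others −0.07. On the carboplatin-labelled and combination arrays the same spots gave −0.18 and 0.01, beside −0.07 and −0.03. For COL13A1 the 2 spots in these columns and the 8 others gave 1.34 and 0.69 on the decitabine-labelled array, both past 1.5-fold, and for ITGAV they gave −0.55 and −0.50. The 10 member probes that lie there only, of COL8A2, COL21A1, ITGA4 and LAMA2 and of genes with further probes, ranged from −0.09 to 0.46 on the decitabine-labelled array, and COL8A2 was the sole one past 1.5-fold, on the carboplatin-labelled and combination arrays.

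**Figure D5:**
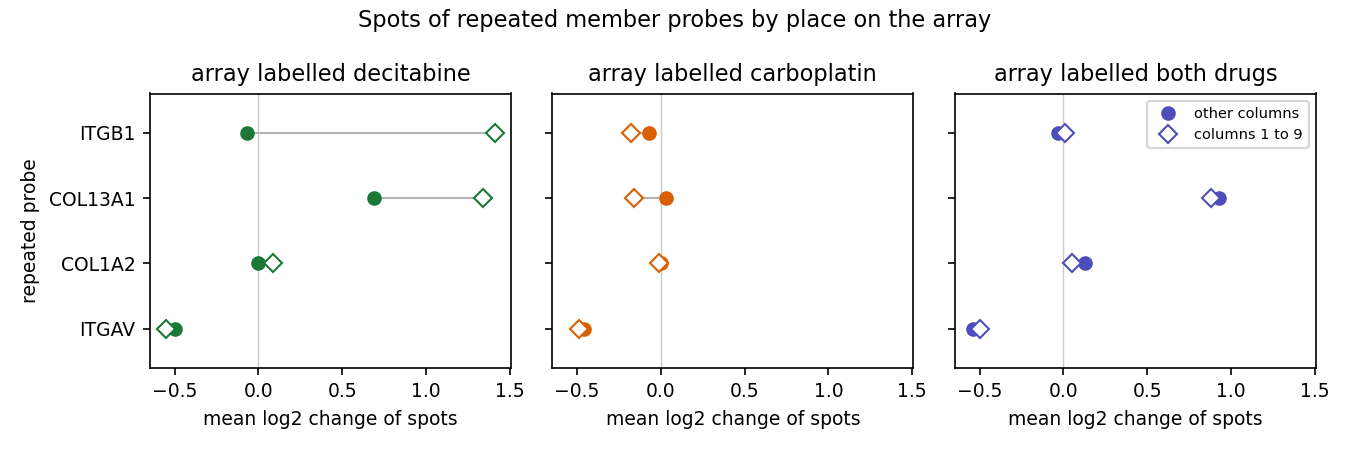
Mean log2 change (x axis) of the spots of 4 repeated member probes (y axis) in columns 1 to 9 (open diamonds) and in the other columns (filled circles), on each array. On the decitabine-labelled array the ITGB1 spots lie at 1.41 and −0.07 and the COL13A1 spots at 1.34 and 0.69, while on the other arrays the widest gap is that of COL13A1 on the carboplatin-labelled array, at −0.16 and 0.03.

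Genes that act with the members were counted from lists of adhesion and matrix genes, to be read beside the 3.95, 2.12 and 5.75 % of all genes that were higher and the 4.47, 1.28 and 4.94 % that were lower on the decitabine-labelled, carboplatin-labelled and combination arrays. Among 22 adaptors and kinases that link integrins to actin, 4, 3 and 5 were higher (18.2, 13.6 and 22.7 %) and 1, 1 and 1 lower (4.55 % each). TNS4, a tensin that binds integrin tails, changed by 1.28, 0.58 and 1.52, and TNS3 by 0.36, 1.20 and 0.88. Other called genes of this list were BCAR1 (0.70, 0.65 and 1.01), FLNA (0.63, 1.02 and 0.86), SRC (0.51, 0.46 and 0.59) and FERMT1 (0.62, −0.16 and 0.35). The lower ones were VCL (−0.30, −0.60 and −0.41) and TNS1 (−0.60, −0.26 and −0.59). Among the kinases and scaffolds that were not called, PTK2, ILK, TLN1 and PXN stayed between −0.28 and 0.19. Of 17 genes for collagen processing, 2, 1 and 6 were higher (11.8, 5.88 and 35.3 %) and 1, 0 and 2 lower (5.88, 0 and 11.8 %), with BMP1, which cleaves procollagen, at 0.57, 0.46 and 0.88 and LOXL2, a crosslinking oxidase, at −0.90, −0.49 and −0.92. Among 14 other matrix proteins and receptors 2, 0 and 3 were higher (14.3, 0 and 21.4 %) and none lower: SDC4, a heparan sulfate proteoglycan of focal adhesions, changed by 2.42, 0.58 and 2.27, and DDR1, a collagen-binding kinase, by 0.64, 0.10 and 1.06. Of 12 matrix proteases and inhibitors 1 was called (8.33 %), the inhibitor TIMP2 with both drugs (0.13, 0.54 and 0.65), and MMP15 gave 0.25, 0.36 and 0.53. The medians of the 4 lists on the combination array were 0.06, 0.27, 0.08 and 0.11, where all genes had 0.00.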

How the data were processed

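Scanner files of 3 dual-colour arrays were used, 1 per treatment. Their spot intensities were deposited by the authors as read by Agilent Feature Extraction (9.5.3.1 in the file headers, 8.5.1.1 in the submitters' processing notes), and the deposited log10 ratio of red over green is that software's. The authors' processed table holds log2 ratios made with limma in R 3.0.2, and its direction was set by correlating it with the scanner ratios. Here limma 3.58.1 (R 4.3.3) corrected mean signals by normexp (offset 50) and fitted loess on each array, with control spots at weight 0 and outlier spots left out. Levels came from Aquantile scaling. A bound sets the brighter group against the higher of the dim probe's own level and the lowest level among probes well above background. Promoter letters are from RefSeq (GRCh38.p14), and probe positions from the files (hg19). Named genes are those past 1.5-fold on an array with a channel well above background, COL5A1, COL9A2 and COL8A2, and the 2 largest of each list. Further list genes are given beside them. The values of 1 laminin gene are not reported here. Members and lists were chosen with earlier results of these data known. The code was tested on simulated data. Alternatives changed background, normalization, signal column, filter and probe choice. Python 3.11.15, numpy 2.4.6, pandas 2.3.3 and matplotlib 3.10.9 were used.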

Additional observations from a re-analysis of the deposited data

How the results depend on the processing

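No paired analysis was possible because each treatment has 1 array. Counts are given below as higher and lower member genes, then probes, where they moved by over 1.5 times, in the order decitabine-labelled, carboplatin-labelled and combination array. With normexp at an offset of 10, lower genes were 3 and 8 on the last pair of arrays, lower probes 4 and 9, and higher probes 11 on the carboplatin-labelled one. Median centring gave 15, 15 and 12 lower genes and 16, 17 and 13 lower probes, 11 higher genes and 23 higher probes on the carboplatin-labelled array, and medians of 0.14, 0.29 and 0.18 over genes and 0.19, 0.36 and 0.26 over probes. Under it 2.95, 10.4 and 3.7 % of all gene probes were higher and 20.1, 13.1 and 16 % lower, and COL6A1 on the carboplatin-labelled array went from 0.63 to just under zero (0.00). With the processed signals, higher and lower genes were 29 and 10 on the decitabine-labelled array and 10 and 7 on the carboplatin-labelled one, probes 52 and 16 and 14 and 10 (25.7 and 11.9 % and 7.26 and 6.75 % of all gene probes), and medians 0.28 and 0.11 over genes and 0.35 and 0.19 over probes. Lower genes and probes on the combination array were 14 and 19. The software's log ratio gave 14 higher and 10 lower genes and 22 and 16 probes on the decitabine-labelled array (8.16 and 11.9 % of all gene probes), 10 and 7 genes and 14 and 10 probes on the carboplatin-labelled array and 14 lower genes and 19 lower probes with both drugs. The authors' processed values gave 3 lower genes and 3 lower probes on the carboplatin-labelled array. The causes were not tested. The other 108 of 153 counts and medians stayed within 1.5 times or the SD of repeated spots. Of 40 changes called for named genes, 40 stayed past the border without columns 1 to 9, with median signals and with the lower offset, 38 with the processed signals, 34 in the authors' processed values, 34 with all probes of a gene averaged and 25 under median centring. Genes dark in the control have only bounds, and the 20 dark in every channel have no measured difference.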
